A study of Mus musculus with 19 samples.

Results

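RNA of the nonmacrophage cells of the auditory nerve was set against RNA of the nonmacrophage cells of the lateral wall of the young mouse cochlea. The comparison was given by its samples: 2 of the 19 libraries of the series, 1 from each structure. Mice were heterozygous CX3CR1 GFP knock-in animals, in which green fluorescent protein (GFP) replaces 1 copy of the gene of a macrophage chemokine receptor, and the control sorts carried the same allele. All libraries used here came from mice aged 1.5 months. Dissected tissue of 1 mouse was dissociated and sorted by GFP, and the GFP-negative cells were collected as nonmacrophages. The GFP-negative sort took every cell without the reporter, so each library mixed all the other cell types of its structure. Beside the pair stood the 2 macrophage (GFP-positive) libraries of the same structures and 4 nonmacrophage libraries of whole young cochleae, replicates 2, 5, 6 and 14. With a single library from each structure there is no replicate check and no test, and every difference below is between 2 libraries. The young whole-cochlea libraries gave the nearest measure of spread between libraries of 1 kind.

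The auditory nerve carries the axons of the spiral ganglion neurons from the cochlea to the brainstem. Schwann cells myelinate these axons in the cochlea, and oligodendrocytes take over where the nerve enters the central nervous system. The lateral wall holds the stria vascularis and the spiral ligament. In the stria, marginal cells secrete potassium into the endolymph that bathes the hair cells, pigmented intermediate cells pass potassium to them and help set the endocochlear potential, and basal cells seal the layer. Fibrocytes of the spiral ligament take up potassium and return it to the stria through gap junctions.

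The nerve library held 26.4 M reads in genes (M, mega) and the lateral wall library 21.5 M. Reads were found for 16100 and 15804 genes. The whole-cochlea libraries held 24.9 to 60.2 M reads and the macrophage libraries 26.4 M (nerve) and 23.7 M (lateral wall). Values below are the deposited ones, read counts divided by a library factor, and are called normalized reads. A single read was worth 1.3986 normalized reads in the nerve library and 1.5293 in the lateral wall library. A gene without a read could have had up to 3 reads, which is 4.2 and 4.59 normalized reads. Log2 ratios are of nerve to lateral wall after adding 1 to each value, so a positive ratio means more in the nerve. Linear folds carry a 95% interval from the recovered reads, which covers the counting error of reads only and leaves out the spread between libraries. The reads have no molecular identifiers, so the interval is not one for counts of molecules.

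The 5 marker genes stood on the side their labels give. Mbp, a basic protein of compact myelin, had 2290000 normalized reads in the nerve and 8749 in the lateral wall, 262-fold higher in the nerve (interval 255 to 269). It stood at 1160000, 1230000, 2510000 and 1780000 in the whole-cochlea libraries, so the lateral wall library was far below all of them. Snap25, part of the machinery of synaptic vesicle fusion, stood at 13534 in the nerve and 174 in the lateral wall (77.6-fold, 64.5 to 94.2). The whole-cochlea libraries held 7576, 17714, 6605 and 2339, on both sides of the nerve value. Lrp2, the endocytic receptor megalin of marginal cells, stood at 1643 in the nerve and 12945 in the lateral wall, 7.88-fold higher in the lateral wall (7.41 to 8.38). Whole-cochlea replicate 14 reached 13965 for Lrp2, as high as the lateral wall, and the other whole-cochlea libraries held 2553 to 4086. Kcne1, the accessory subunit of the potassium channel of marginal cells, stood at 57.3 and 8299, 145-fold higher in the lateral wall (107 to 202). Dct, the dopachrome tautomerase of pigment cells, stood at 5370 and 625746, 117-fold higher (113 to 120). Both lay well above the nerve in every whole-cochlea library, at 4893, 1047, 3485 and 2570 for Kcne1 and 454676, 183171, 169340 and 234518 for Dct.

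**Figure D1:**
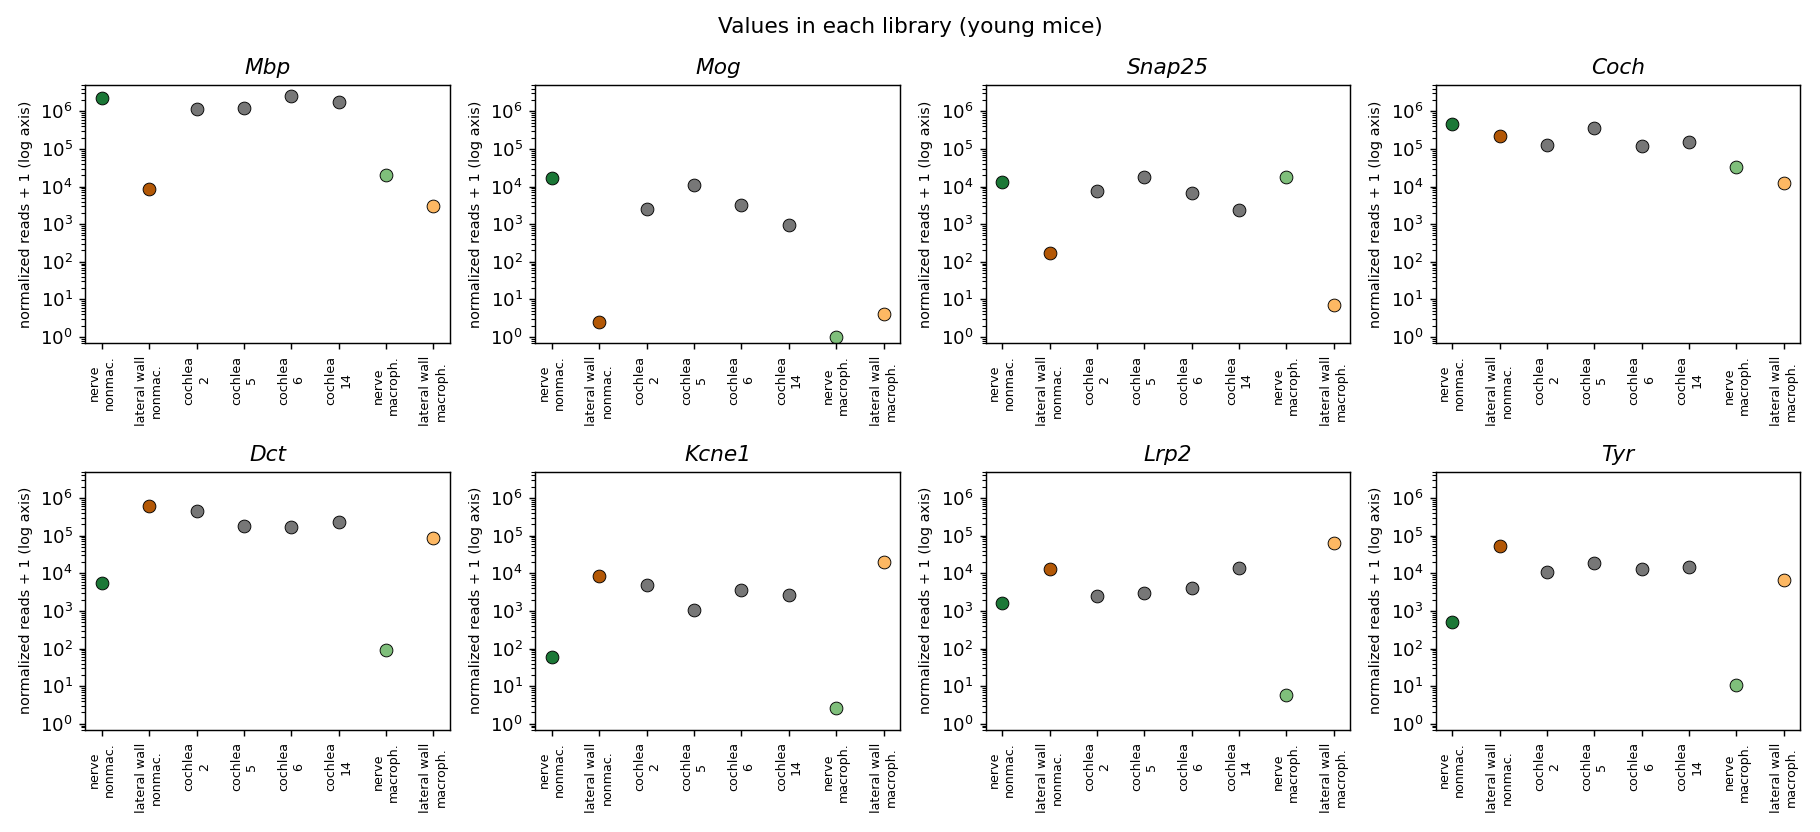
Normalized reads + 1 on a log axis for 8 genes in the 8 young libraries used: nerve and lateral wall nonmacrophages, whole-cochlea nonmacrophages (replicates 2, 5, 6 and 14) and nerve and lateral wall macrophages, 1 point per library. Mbp, Mog and Snap25 are lowest among the nonmacrophages in the lateral wall, Dct and Kcne1 are lowest among them in the nerve, and Coch stands between 120474 and 467101 in all 6 nonmacrophage libraries.

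Pigment genes had the lowest median log2 ratio of the 30 lists plotted (given below), and their promoters are shown because several of them carry the letters CATGTG. The pigment cell factor MITF is known to bind these letters, the core of the M-box. RefSeq promoter windows (GRCm38.p6, 300 bases, 250 before and 50 after the start of the gene) were found for 11 of the 16 genes of the pigment list. CATGTG or its reverse complement CACATG was in the windows of 6 of these genes: Dct, Tyr, Tyrp1, Kcnj13, Slc24a5 and Oca2. Of all 32851 windows 14.2% held it, and of all 27025 genes 15.9% held it in at least 1 window. The 250 bases before the start are printed 5′ to 3′ on the strand of the gene, with either form of the letters in capitals, for 4 genes that were higher in the lateral wall and for Tyrp1, which was not. Dct lies at chr14:118052247-118052496 (minus strand), Tyr at chr7:87493513-87493762 (minus), Tyrp1 at chr4:80833963-80834212 (plus), Kcnj13 at chr1:87394730-87394979 (minus) and Slc24a5 at chr2:125067877-125068126 (plus).
Dct: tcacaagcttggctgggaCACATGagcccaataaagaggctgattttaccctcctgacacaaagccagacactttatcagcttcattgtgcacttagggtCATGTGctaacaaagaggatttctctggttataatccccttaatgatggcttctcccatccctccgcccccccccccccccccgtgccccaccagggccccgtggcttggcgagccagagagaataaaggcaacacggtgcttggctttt
Tyr: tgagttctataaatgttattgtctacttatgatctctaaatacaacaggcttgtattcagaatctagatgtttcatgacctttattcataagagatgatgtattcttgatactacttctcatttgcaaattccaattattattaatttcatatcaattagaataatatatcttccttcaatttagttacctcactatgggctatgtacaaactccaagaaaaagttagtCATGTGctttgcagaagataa
Tyrp1: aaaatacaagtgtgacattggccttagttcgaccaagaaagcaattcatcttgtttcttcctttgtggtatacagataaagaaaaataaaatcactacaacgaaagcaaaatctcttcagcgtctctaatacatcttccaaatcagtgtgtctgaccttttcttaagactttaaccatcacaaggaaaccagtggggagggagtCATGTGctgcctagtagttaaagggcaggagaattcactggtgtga
Kcnj13: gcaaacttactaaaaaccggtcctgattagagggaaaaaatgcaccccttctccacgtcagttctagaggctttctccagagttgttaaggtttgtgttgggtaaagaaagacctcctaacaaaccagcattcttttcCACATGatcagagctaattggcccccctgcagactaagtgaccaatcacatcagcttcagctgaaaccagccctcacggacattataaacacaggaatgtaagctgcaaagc
Slc24a5: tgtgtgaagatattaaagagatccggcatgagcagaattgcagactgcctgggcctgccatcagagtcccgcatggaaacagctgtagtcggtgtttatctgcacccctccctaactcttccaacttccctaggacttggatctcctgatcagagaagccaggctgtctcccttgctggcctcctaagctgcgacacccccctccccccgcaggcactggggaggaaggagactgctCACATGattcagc
The letters begin 232 and 150 bases before the start in Dct, 21 in Tyr, 46 in Tyrp1, 112 in Kcnj13 and 13 in Slc24a5. The longer form TCATGTGCT, picked after the printed sequences were seen, was found on either strand in Dct, Tyr and Tyrp1, the 3 genes of the tyrosinase family, and in 0.408% of all windows. It contains the shorter motif. The matches are letters in these windows, and binding was not measured. Tyrp1 shares both motifs with Dct and Tyr, yet its values followed neither of them.

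Of the 18639 genes, 14224 had at least 50 normalized reads in the higher library of the pair and were compared. At least 4-fold higher in the nerve were 1186 of them (8.34%), and at least 4-fold higher in the lateral wall were 786 (5.53%). The other 12252 (86.1%) differed by less, around a median log2 ratio of 0.05. The spread among the 4 whole-cochlea libraries was wide, with a median range of 1.69 on the log2 scale, and 40.4% of the genes compared had a range of at least 2. A difference of at least 4-fold that also exceeded this range was seen for 817 genes higher in the nerve (5.74% of those compared) and 431 higher in the lateral wall (3.03%). Below, "past 4-fold" means the first rule and "beyond the whole-cochlea range" the second.

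**Figure D2:**
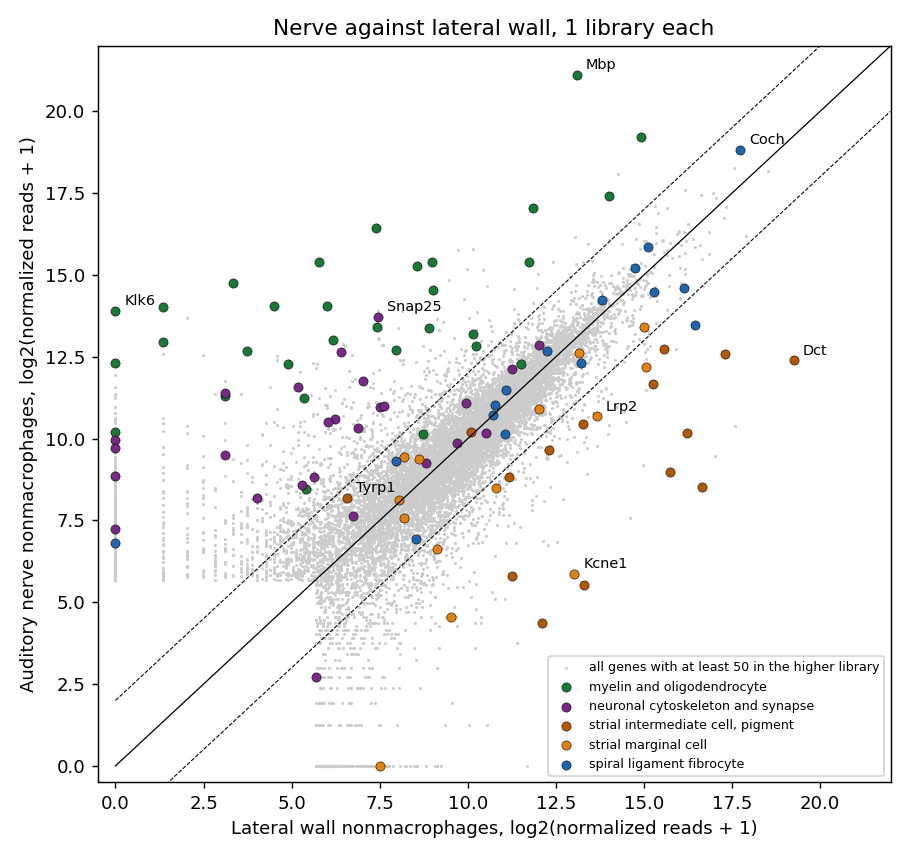
Log2(normalized reads + 1) of the lateral wall (x axis) and auditory nerve (y axis) nonmacrophage libraries, 1 point per gene compared, with equality as a solid line and 4-fold as dashed lines. All 16 Schwann cell myelin genes and most oligodendrocyte and neuronal genes lie above the upper dashed line, 13 of 15 pigment genes below the lower one, and 14 of 16 spiral ligament fibrocyte genes between them, with Coch at 467101 against 218026.

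Myelin genes were higher in the nerve without exception in the list used. All 16 myelin genes of Schwann cells were past 4-fold and beyond the whole-cochlea range, with a median log2 ratio of 5.94 and values from 3.05 to 11.40. Mag, an adhesion protein between axon and myelin (chromosome 7, 30899176 to 30914873), stood at 43260 and 53.5 (808-fold, 581 to 1160). Ugt8a, the enzyme of galactolipid synthesis for myelin, stood at 27405 and 9.18 (2990-fold, 1370 to 8140). Prx, the Schwann cell scaffold periaxin, stood at 23954 and 514, and Egr2, the transcription factor of peripheral myelination, at 8316 and 71.9. Pmp22 and Pllp had the smallest ratios of the named myelin genes, at 3.38 and 3.05.

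Genes of oligodendrocytes, the myelinating cells of the central nervous system, were on the nerve side too. Of 15 compared, 13 were past 4-fold toward the nerve and beyond the whole-cochlea range, and none toward the lateral wall, with a median log2 ratio of 8.18. Klk6, a secreted protease of oligodendrocytes (chromosome 7, 43824499 to 43832030), had the largest ratio of all genes compared that met the naming rule. It stood at 15419 in the nerve with no read in the lateral wall, which puts it at least 3360-fold higher. Mog, a glycoprotein on the surface of central myelin (chromosome 17, 37010743 to 37023398), stood at 16597 against a single read (10900-fold, interval 1950 to 429000). In the whole-cochlea libraries Mog stood at 2551, 11152, 3133 and 978, all below the nerve, and Klk6 at 2494, 10416, 3891 and 1005. Hapln2, a link protein of the node of Ranvier in central axons, stood at 5054 against no read (at least 1100-fold). Olig1 and Olig2, the transcription factors of the lineage, stood at 7885 and 1183 against 1.53 and no read. Mobp, a structural protein of central myelin, stood at 88626 and 167. Cldn11 and Gjc3 were the compared members that were not past 4-fold, at ratios of 1.41 and 0.76. Opalin was too low to be compared, at 44.8 against no read. Sets of oligodendrocyte and Schwann cell genes thus stood together in the same nerve library, and how many cells each came from cannot be read from a bulk library. In such a library fewer cells of a type and less RNA per cell cannot be told apart.

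Genes of Schwann cells without myelin and of satellite glia, which wrap the neuron bodies, were split. Of 13 compared, 7 were past 4-fold toward the nerve and none toward the lateral wall (median 2.55). Ngfr, the low-affinity neurotrophin receptor, stood at 289.5 and 4.59 (63.1-fold, 21.3 to 308). Gfap, an intermediate filament of astrocytes and of Schwann cells without myelin, stood at 1105 and 16.8 (65.7-fold, 36.5 to 132). Fabp7, a fatty acid binding protein of glial precursors and satellite cells, stood at 2955 and 222. Sox10, the transcription factor shared by Schwann cells, oligodendrocytes and pigment cells, stood at 5836 and 6814, a log2 ratio of -0.22. S100b, a calcium-binding protein, stood at 31821 and 25817. Sox10 and S100b were thus near equality in the same libraries. Of 7 astrocyte genes compared, Aqp4 (361 and 73.4) and Slc4a4 (232 and 41.3) were past 4-fold toward the nerve, and the median was 0.22. Slc1a3, the glial glutamate transporter, stood at 17444 and 5599, a ratio of 1.64.

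Most neuronal genes were higher in the nerve too. Of 12 genes of the neuronal cytoskeleton, 8 were past 4-fold toward the nerve and beyond the whole-cochlea range, and none toward the lateral wall (median 3.93). Nefl, the light neurofilament (chromosome 14, 68083863 to 68089095), stood at 6352 and 84.1 (75.5-fold, 57.9 to 100). Nefm, the middle one, stood at 992 with no read in the lateral wall (at least 216-fold), and Nefh, the heavy one, at 3043 and 35.2 (86.5-fold, 57.5 to 137). In the whole-cochlea libraries Nefl ranged from 914 to 4881, below the nerve, while Nefm ranged from 460 to 1162, on both sides of it. Map1b, Map2, Mapt and Prph had ratios between -0.34 and 0.87.

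Of 14 genes of synaptic vesicles and release, 10 were past 4-fold toward the nerve and 1 toward the lateral wall (median 3.81). Slc17a6, the vesicular glutamate transporter VGLUT2, stood at 845 with no read in the lateral wall (at least 184-fold). Cplx1, a complexin that clamps vesicle fusion, stood at 2717 and 7.65 (355-fold, 152 to 1100), and Syn1, a protein of the vesicle surface, at 720 and 7.65 (94.2-fold, 40.1 to 291). The exception was Cplx2, at 5.59 against 50.5, with 91.3 to 372 in the whole-cochlea libraries. Vamp2 and Syt1 had ratios of 0.86 and 0.17.

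Of 13 ion channel genes of axons, 10 were past 4-fold toward the nerve and 2 toward the lateral wall (median 3.71). Kcna1, a potassium channel next to the node of Ranvier, stood at 10664 and 260.0 (41-fold, 35.2 to 48). Scn1a, a sodium channel of axons, stood at 278 with no read in the lateral wall (at least 60.7-fold). Scn8a, the sodium channel of mature nodes, stood at 215 and 1905, 8.85-fold higher in the lateral wall (7.48 to 10.5). This channel gene therefore stood opposite to the neurofilaments and to Kcna1 in the same libraries.

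Genes that mark spiral ganglion neurons and their subtypes were less uniform. Of 14 compared, 7 were past 4-fold toward the nerve and beyond the whole-cochlea range, and none toward the lateral wall (median 1.86). Calb2, the calcium-binding protein calretinin of a class of type I neurons, stood at 2277 and 280 (8.14-fold, 6.98 to 9.53). Lypd1, a marker of another class, stood at 1197 and 156 (7.67-fold, 6.24 to 9.52), and Calb1, calbindin, at 222 with no read in the lateral wall (at least 48.5-fold). Th, the tyrosine hydroxylase of catecholamine synthesis, stood at 1583 with no read in the lateral wall (at least 345-fold). The whole-cochlea libraries held 989, 1453, 0 and 54.5 of Th, from far below the nerve to near it. Prox1, a transcription factor of neurons and supporting cells, stood at 299 against no read (at least 65.2-fold). Pou4f1 had 2.8 normalized reads in the nerve, the value of 2 reads, and none in the lateral wall, and was too low to be compared. Ntrk2 and Ntrk3, the receptors of brain-derived neurotrophic factor and neurotrophin 3, had ratios of 0.93 and 3.29.

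The marginal cell list was on the lateral wall side, with a spread from strong to none. Of 14 genes compared, 7 were past 4-fold toward the lateral wall, 6 of them beyond the whole-cochlea range, and none toward the nerve (median -1.94). Beside Kcne1 (chromosome 16, 92345982 to 92359468) and Lrp2 (chromosome 2, 69424340 to 69586065) stood Kcnq1, the pore of the same potassium channel. Kcnq1 stood at 362 and 1769, 4.88-fold higher in the lateral wall (4.27 to 5.61). Esrrb, a nuclear receptor needed for marginal cells, stood at 22.4 and 739 (33-fold, 20.1 to 58.2). Bsnd, the chloride channel subunit barttin, had no read in the nerve and stood at 182 in the lateral wall (at least 43.4-fold), with 0, 0, 9.79 and 145 in the whole-cochlea libraries. The channel genes and Bsnd were thus on the lateral wall side, by very different folds. Slc12a2, the sodium, potassium and chloride cotransporter of the basal side of marginal cells, stood at 10917 and 32895 (3.01-fold, 2.94 to 3.09). Tmem72, Abcg1 and Wnk2 had ratios of 1.25, 0.77 and 0.06.

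Pigment genes, which in the lateral wall mark the intermediate cells, had the lowest median of the 30 lists shown in the plot of lists. Of 15 compared, 13 were past 4-fold toward the lateral wall and beyond the whole-cochlea range, and none toward the nerve, with a median log2 ratio of -4.72. Tyr, the tyrosinase that starts melanin synthesis (chromosome 7, 87424771 to 87493512), stood at 499 in the nerve and 54299 in the lateral wall (109-fold, 98 to 121). The whole-cochlea libraries held 10758, 19106, 12749 and 14576 of it, all between the 2 structures. Slc45a2, a transporter of the melanosome (chromosome 15, 11000721 to 11029233), stood at 369 and 103292 (280-fold, 248 to 317). Mlana, a melanosome protein, stood at 44.8 and 10015 (224-fold, 158 to 327), and Gpr143, a receptor of the melanosome, at 19.6 and 4450 (227-fold, 135 to 416). Dct and these 4 genes had the widest gaps of the list. Gsta4, a glutathione transferase, stood at 6196 and 162867 (26.3-fold, 25.5 to 27.1). Per kilobase of exon its level in the lateral wall was 128600, above the 106100 of Dct and the 7639 of Tyr. Kcnj13, an inward rectifier potassium channel (chromosome 1, 87386363 to 87394729), stood at 1164 and 75961 (65.3-fold, 61 to 70), and Kcnj10, the inward rectifier of intermediate cells that takes part in the endocochlear potential, at 1404 and 9879 (7.04-fold, 6.58 to 7.53). Mitf, the pigment cell factor, stood at 452 and 2324 (5.15-fold, 4.56 to 5.82). The receptors Ednrb and Met were 7.15-fold (6.94 to 7.37) and 12-fold (11.5 to 12.5) higher in the lateral wall.

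Tyrp1 and Kit did not go with the rest of the list. Tyrp1, the third enzyme of the tyrosinase family, stood at 292 in the nerve and 93.3 in the lateral wall, and at 62.2, 12.3, 1.63 and 160 in the whole-cochlea libraries. Per kilobase of exon its level was 103 in the nerve and 33.0 in the lateral wall, far below Tyr in the latter. Its range across whole cochleae was wider than the gap between the structures. Kit, a receptor of pigment cells and of other lineages, stood at 1189 and 1098. Oca2 was too low to be compared, at 15.4 normalized reads in the nerve and none in the lateral wall. Of pigment cell and lysosome genes outside the list, picked after their values were seen, Gpnmb stood at 1326 and 198658, and Hpse, the heparanase, at 703 and 132275. Trpm1 and Tspan10, also picked so, stood at 61.5 and 8509 and at 189 and 24848.

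**Figure D3:**
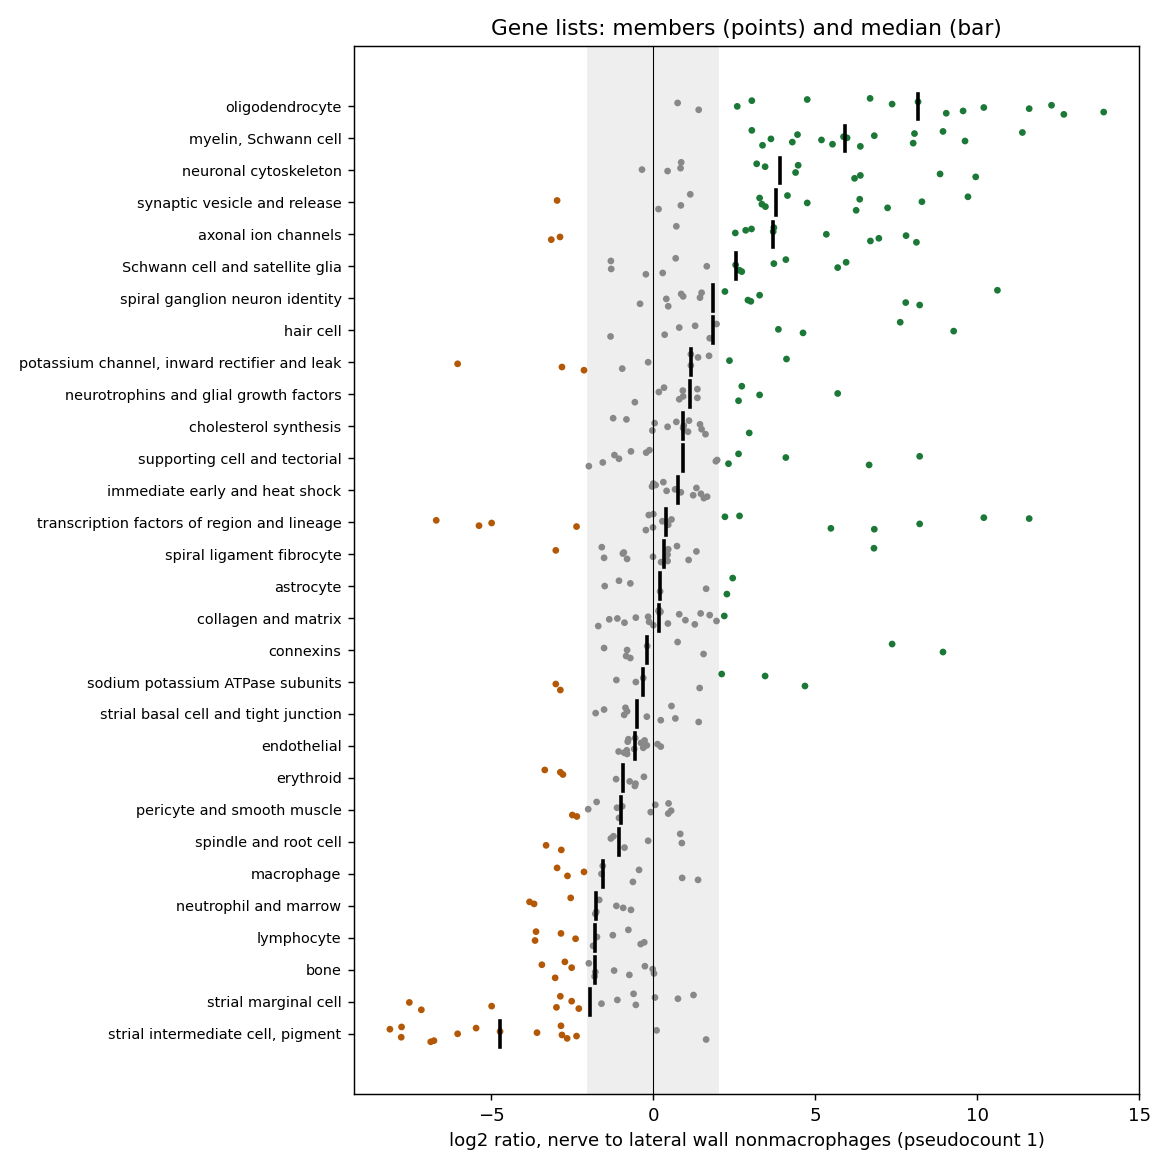
Log2 ratio of nerve to lateral wall nonmacrophages for each compared member (points) of 30 gene lists, with the median of each list as a bar, sorted by median. Points past 4-fold are green (nerve) or brown (lateral wall), and the grey band spans ratios from -2 to 2. Oligodendrocyte (median 8.18) and myelin genes (5.94) are at the top, marginal cell (-1.94) and pigment genes (-4.72) at the bottom, and the medians of fibrocyte (0.33), collagen (0.20) and endothelial genes (-0.57) are inside the band, as are all 14 endothelial genes.

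Most fibrocyte genes were not past 4-fold. Of 16 fibrocyte genes compared, 1 was past 4-fold toward each structure, and the median was 0.33. Coch, the cochlin of the fibrocyte matrix (chromosome 12, 51593341 to 51605771), stood at 467101 in the nerve and 218026 in the lateral wall (2.14-fold, 2.13 to 2.16). The whole-cochlea libraries held 125822, 362711, 120474 and 152451 of it, so the nerve was highest of the 6 nonmacrophage libraries. Otos, the secreted protein otospiralin, stood at 2095 and 1759, and Otor, otoraplin, at 6587 and 4833. Pou3f4, the transcription factor of otic fibrocytes, stood at 1681 and 1687, and Tbx18 at 2878 and 2172. Otos, Otor, Pou3f4 and Tbx18 thus stood at like levels in both libraries of the pair, while Coch was higher in the nerve. Gjb6, also in the list, was higher in the lateral wall (ratio -1.51), and the list ran from -3.0 to 6.82. The members past 4-fold were Atp1b1 toward the lateral wall (below) and Cnn1, a calponin of contractile cells, at 112 with no read in the lateral wall.

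Lists of matrix, endothelial and basal cells had at most 1 gene past 4-fold, and those of pericytes and root cells had 2 each, toward the lateral wall. Over all genes compared, 8.34% were past 4-fold toward the nerve and 5.53% toward the lateral wall. Of 20 collagen and matrix genes, Col6a1 alone was past 4-fold (3608 and 783), and the median was 0.20. Dcn, the proteoglycan decorin, stood at 120849 and 43562, and Sparc, a matrix protein, at 81420 and 71440. None of 14 endothelial genes was past 4-fold (median -0.57, from -1.06 to 0.24), and Emcn, endomucin, stood at 39604 and 33484. Of 12 pericyte and smooth muscle genes, Rgs5 (7215 and 36863, 5.11-fold, 4.96 to 5.27) and Cspg4 (390 and 2190, 5.61-fold, 4.93 to 6.4) were past 4-fold toward the lateral wall and beyond the whole-cochlea range. Notch3 missed the rule after the addition of 1, at 259 and 1037. None of 10 basal cell and tight junction genes was past 4-fold (median -0.49). Of 8 spindle and root cell genes, Slc26a4, the anion exchanger pendrin, stood at 1013 and 7217 (7.13-fold higher in the lateral wall, 6.59 to 7.72), Dpp10 was past 4-fold the same way, and the median was -1.05.

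Genes of ion pumps, gap junctions and potassium channels differed by member between the structures. Levels of beta subunits, connexins and potassium channels are per kilobase of the merged exons, so that genes can be set beside each other. Of 9 genes of the sodium pump, 3 were past 4-fold toward the nerve and 2 toward the lateral wall. Among the beta subunits, Atp1b1 stood at 3661 per kilobase in the nerve and 29300 in the lateral wall, and Atp1b2 at 1543 and 2226. In normalized reads, Atp1b1 was 8-fold (7.82 to 8.19) higher in the lateral wall, a gap beyond the whole-cochlea range. Fxyd2 and Fxyd6, regulatory subunits of the pump, were past 4-fold toward the nerve, at 1765 and 159 and at 43273 and 9962 normalized reads.

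Of 9 connexins compared, 2 were past 4-fold, both toward the nerve. Gjb1, the connexin of Schwann cell myelin, stood at 3839 per kilobase in the nerve and 7.17 in the lateral wall (536-fold in normalized reads, 272 to 1240). The connexins of the gap junctions of the lateral wall were abundant in both. Gjb2 stood at 9481 per kilobase in the nerve and 16480 in the lateral wall, and Gjb6 at 9398 and 26710. Of 11 inward rectifier and leak potassium channels, Kcnj13, Kcnj10 and Kcnj2 were past 4-fold toward the lateral wall, and Kcnk1 and Kcnk2 toward the nerve. Kcnj13 stood at 916 per kilobase in the nerve and 59810 in the lateral wall, the highest level of the list there. Kcnk2, a mechanically gated leak channel, stood at 999.6 and 57.2 (17.5-fold in normalized reads, 15.1 to 20.4), and Kcnk1 at 2750 and 535.

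**Figure D4:**
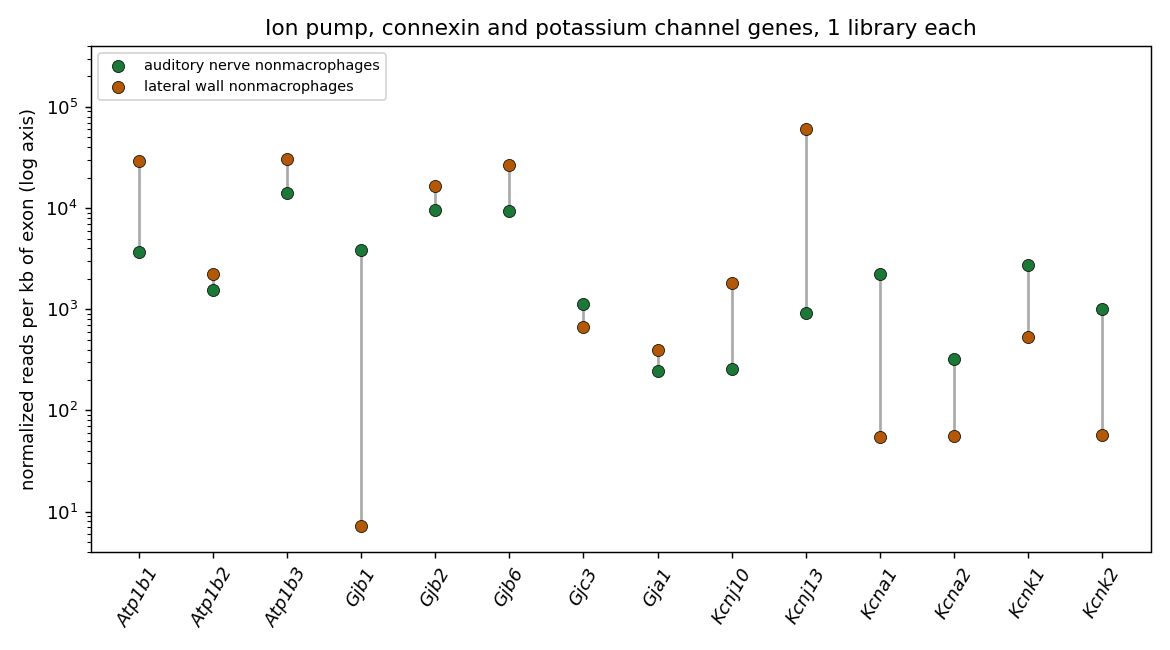
Normalized reads per kilobase of merged exons, on a log axis, of sodium pump, connexin and potassium channel genes in the nerve (green) and lateral wall (brown) nonmacrophage libraries, 1 point per library joined by a line for each gene. Atp1b1, Kcnj10 and Kcnj13 are higher in the lateral wall and Gjb1, Kcna1 and Kcnk2 in the nerve, while Gjb2 and Gjb6 are close together.

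Transcription factors of region and lineage were divided between the structures. Of 19 compared, 7 were past 4-fold toward the nerve and 4 toward the lateral wall, all of them beyond the whole-cochlea range. On the nerve side stood Egr2 and Pou3f1 of myelinating Schwann cells, Olig1 and Olig2, Prox1, Isl1 and Foxd3. Pou3f1 stood at 2442 and 53.5. On the lateral wall side stood Mitf, Pax3, Esrrb and Hmx3. Pax3, a factor of pigment cell precursors, stood at 39.2 and 1658 (42.3-fold, 29.1 to 64), and Hmx3 had no read in the nerve and stood at 102 in the lateral wall. Of 12 neurotrophin and glial growth factor genes, Bdnf, Ntrk3, Ngfr and Erbb3 were past 4-fold toward the nerve and none toward the lateral wall. Erbb3, the neuregulin receptor of Schwann cells, stood at 2292 and 343. On the log2 scale this gap was narrower than that between its lowest and highest whole-cochlea values (51.6 and 1365), all below the nerve. Of 14 genes of cholesterol synthesis, a pathway that myelin draws on, Hmgcs1 alone was past 4-fold (42868 and 5479, 7.82-fold, 7.56 to 8.1), and the median was 0.94.

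Some of the largest ratios belonged to genes outside these lists. Toward the nerve, the largest included Klk6, Mog, Hapln2, S1pr5, Tmem151a, Olig1, Sox2ot, Ugt8a, B3galt5, Tppp and Hepacam, from 13.91 to 11.25. S1pr5, a sphingosine phosphate receptor of oligodendrocytes, stood at 3922 with no read in the lateral wall (at least 855-fold). Tppp, a tubulin-binding protein of oligodendrocytes, stood at 6203 against a single read (4060-fold, 728 to 160000). Hepacam, a glial adhesion protein, stood at 2428 with no read in the lateral wall. Of these genes, 4 are in the oligodendrocyte list and Ugt8a is in the myelin list.

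Toward the lateral wall, the 12 largest were Fstl4, Wfdc18, Krt7, Dntt, Ckap2l, Dsp, Hkdc1, Nuf2, Ermap, Igll1, Rufy4 and Tspan1, from -11.68 to -8.54. Fstl4, a follistatin-like protein, stood at 3279 with no read in the nerve (at least 781-fold), and at 214 to 786 in the whole-cochlea libraries. Wfdc18, a small secreted protein, stood at 4.2 and 8908 (2120-fold, 726 to 10300), and at 4866 to 78121 in the whole-cochlea libraries. Krt7, an epithelial keratin, stood at 1.4 and 1493 (1070-fold, 191 to 42200). Dsp, the desmosome protein desmoplakin, had no read in the nerve and stood at 555 in the lateral wall, and at 421 to 556 in every whole-cochlea library. Krt7 and Dsp are thus epithelial genes seen in the lateral wall and in whole cochleae but hardly in the nerve. Dntt and Igll1, which act in lymphocyte precursors, stood at 598 and 376 in the lateral wall with no read in the nerve. In the whole-cochlea libraries Dntt stood at 126, 0, 73.4 and 0. Ermap is an erythroid gene, and Ckap2l and Nuf2 act in mitosis.

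Genes of other cells that the sorts could hold were on the lateral wall side. Of 12 bone genes, 4 were past 4-fold toward the lateral wall and none toward the nerve (median -1.79), with Bglap, osteocalcin, at 1587 and 12883 and Spp1, osteopontin, at 138949 and 165404. Of 8 erythroid genes, 3 were past 4-fold the same way, among them Klf1 (144 and 1051) and Epb42 (110 and 1130), while the globins differed less. Hba-a1 and Hba-a2 are near-identical copies and their separate values are uncertain. Of 9 neutrophil and marrow genes, Elane (841 and 10699), Prtn3 (161 and 2262) and Retnlg (594 and 3473) were past 4-fold the same way. Of 10 lymphocyte genes, 4 were, among them Cd79a, Nkg7 and Gzma. The summed level of the neutrophil and marrow list was 57190 in the nerve, 139524 in the lateral wall and 133 to 48163 in the whole-cochlea libraries. That of the erythroid list was 244934, 373894 and 13626 to 1785500. Of 14 cell cycle genes, a list added after the data were seen, 8 were past 4-fold toward the lateral wall and none toward the nerve, with Top2a at 26.6 and 1197 and Mki67 at 106 and 1035. Their summed level was 2674 in the nerve, 13661 in the lateral wall and 616 to 1460 in the whole-cochlea libraries. Marrow, erythroid, bone and cell cycle genes thus shared a direction with the marginal cell and pigment genes, and their part in those results was not tested. Their whole-cochlea ranges were wide, and of the 14 bone, erythroid, neutrophil and lymphocyte genes past 4-fold, 3 were beyond them (Sost, Ifitm5 and Epb42).

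Macrophage genes were low in both libraries beside the macrophage sorts. Cx3cr1, the gene of the reporter locus, stood at 2.8 in the nerve and 35.2 in the lateral wall, against 51002 and 11939 in the macrophage libraries of the same structures. The summed level of the 14 macrophage genes was 11190 in the nerve and 32566 in the lateral wall, against 1932300 and 1118450 in those sorts and 1047 to 7850 in the whole-cochlea nonmacrophages. Most of it was Lyz2, the lysozyme of macrophages and neutrophils, at 9418 and 27565. Of 9 macrophage genes compared, Cd68, Ptprc and Fcer1g were past 4-fold toward the lateral wall and none toward the nerve, and none of the 9 was beyond the whole-cochlea range. Mrc1 and Aif1 were near 0 in both. On the nerve side stood some hair cell and supporting cell genes, 4 of 10 and 5 of 14 compared, with none toward the lateral wall in either list. Of these, 4 and 3 were beyond the whole-cochlea range. The summed hair cell list was 11616 in the nerve and 7258 in the lateral wall. That of the supporting cell list was higher in the lateral wall, at 22868 and 30653. Pvalb, parvalbumin, which neurons also make, stood at 1569 against a single read (1030-fold, 184 to 40600), Chrna9, the acetylcholine receptor of hair cells, at 197 against no read, and Ocm, oncomodulin, at 148 and 9.18. The part of hair cells in the nerve library was not tested. None of 12 immediate early and heat shock genes was past 4-fold (median 0.77), with Fos at 63557 and 21410.

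The macrophage libraries of the same structures, which played no part in choosing the pair, shared part of the contrast. In that pair 13502 genes were compared, of which 1449 (10.7%) were past 4-fold toward the nerve and 1471 (10.9%) toward the lateral wall. Of the 1186 nonmacrophage genes of the nerve, 724 were high enough to be compared in macrophages. There 419 were past 4-fold the same way (35.3% of the 1186 and 28.9% of the 1449), 64 the other way (5.4% of the 1186) and 241 neither. Of the 786 of the lateral wall, 620 could be compared. Of them 223 were past 4-fold the same way (28.4% of the 786 and 15.2% of the 1471), 41 the other way (5.2% of the 786) and 356 neither. Of the synaptic list 11 of 12 genes compared were past 4-fold toward the nerve in the macrophage pair. Snap25 stood at 18339 and 6.13 there, and Nefl at 7452 with no read in the lateral wall. In the nerve both were higher in the macrophage library than in the nonmacrophage one, which held 13534 and 6352. The summed synaptic list was 40979 in nerve macrophages and 33842 in nerve nonmacrophages. Ganglion neuron genes summed to 26942 and 19287, cytoskeleton genes to 21627 and 25005, and axonal channels to 4360 and 19998. The part of neurons in the nerve macrophage library was not tested. Of the myelin list 10 of 16 were past 4-fold toward the nerve and 1, Pllp, toward the lateral wall. Mbp stood at 20180 and 3031, far below its 2290000 in the nerve nonmacrophages. Of the oligodendrocyte list 4 of 7 were past 4-fold toward the nerve and 1 toward the lateral wall. Mog, among the largest in the nonmacrophage pair, had no read in the nerve macrophage library and stood at 3.06 in that of the lateral wall.

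On the lateral wall side the macrophage pair showed strial genes at high levels. Of 13 marginal cell genes compared, 12 were past 4-fold toward the lateral wall. Over the 14 marginal cell genes compared in the nonmacrophage pair, the median ratio was -5.93 in macrophages and -1.94 in nonmacrophages. Kcne1 stood at 1.65 and 19788, and Lrp2 at 4.96 and 64907. In the lateral wall both were therefore higher in the macrophage library than in the nonmacrophage one, which held 8299 of Kcne1 and 12945 of Lrp2. The part of marginal cells in that macrophage library was not tested. Over the 15 pigment genes compared in the nonmacrophage pair, the median ratio in macrophages was -4.38. Of 14 pigment genes compared in the macrophage pair, 10 were past 4-fold toward the lateral wall, with Dct at 90.9 and 87357 and Tyr at 9.91 and 6740. These stood below the levels of the lateral wall nonmacrophages. Coch stood at 33261 and 12473, a ratio of 1.41 beside 1.10 in the nonmacrophages.

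**Figure D5:**
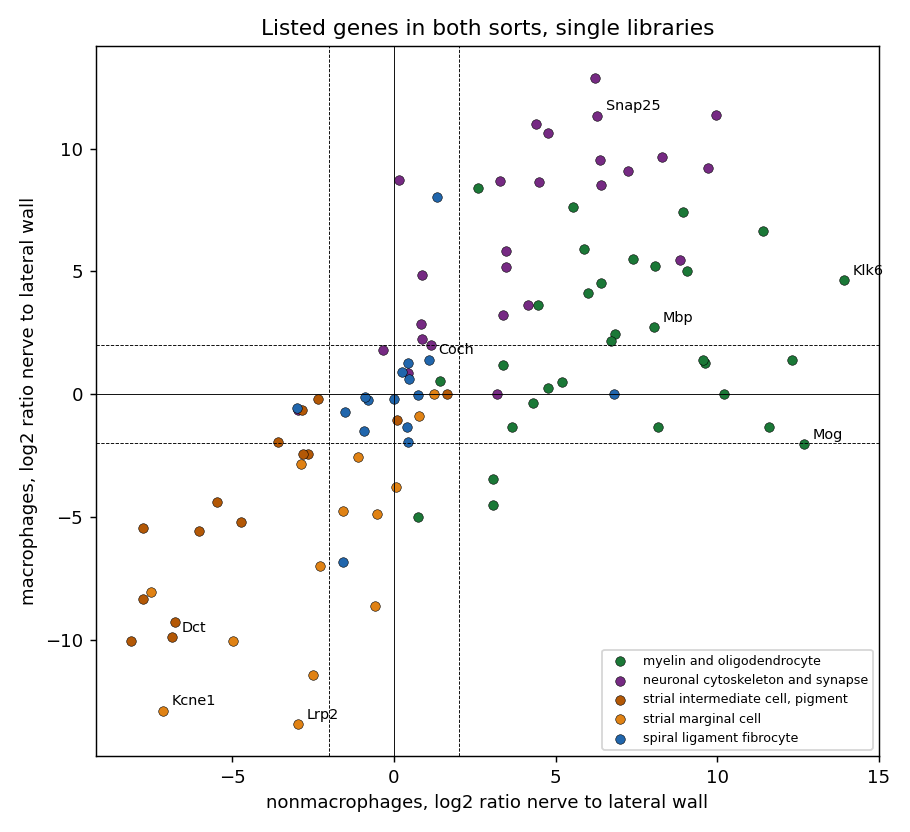
Log2 ratio of nerve to lateral wall in nonmacrophages (x axis) and in macrophages (y axis), 1 point per gene, with dashed lines at 4-fold. The genes are the members of 5 kinds of gene list that were compared in the nonmacrophage pair, also where macrophage values were too low to be compared. Most neuronal genes lie high on the right, most pigment genes at lower left and most fibrocyte genes near the centre. Oligodendrocyte genes spread down the right side, but only 7 of these 15 were high enough to be compared in macrophages, and Mog was not among them.

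For most genes past 4-fold, the whole cochlea, which holds both structures, stood between them. The median of the 4 whole-cochlea libraries lay between nerve and lateral wall for 916 of the 1186 genes of the nerve (77.2%) and for 563 of the 786 of the lateral wall (71.6%). It lay above both for 185 and 51, and below both for 85 and 172. These genes were picked for a wide gap between the 2 libraries, which makes a value inside the gap likely. The shares are therefore a description, and no conclusion is drawn from them. Pvalb, at 1569 in the nerve and a single read in the lateral wall, was among the genes above both, at 8527, 2980, 3913 and 1565. Elane, the elastase of neutrophils, was among those below both, at 841 in the nerve and 10699 in the lateral wall against 889, 0, 3777 and 473. Of the genes past 4-fold, 305 of the nerve had no read in the lateral wall and 145 of the lateral wall had none in the nerve.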

How the data were processed

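RNA sequencing libraries of 8 of the 19 mouse samples were used. Per the labels' protocols, RNA was made into libraries with SMARTer Ultra and Nextera XT, each isolate came from 1 mouse, low-quality RNA was left out, and a subset was sequenced in a repeat run. Per the submitters' processing notes, mm10, TopHat2, Partek and DESeq2 were used (no versions). Whether strand was used in counting is not given in the sources used here, so overlapping genes (Sox2 and Sox2ot, Nefl and Nefm, Kcnj13 and its host gene) may share reads. The authors' deposited table holds a signal value for each gene and library, which is the number of reads over a factor of that library. The smallest steps between values gave back the reads, with 100.0% of values under 10000 reads whole within 0.1 read. Values above 1000000 are deposited with 3 digits. The authors' own p-values and fold changes in the deposited table concern other comparisons and were not used.

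Log2 ratios used a pseudocount of 1, and genes needed at least 50 in the higher library. With 1 library per group no test was possible, so 4-fold stood in for a call, beside the range over the 4 young whole-cochlea nonmacrophage libraries. Folds carry exact conditional binomial 95% intervals, and against 0 reads a lower bound from 3 reads in that library. Positions and exon lengths come from GENCODE M21 (mm10) and promoters from RefSeq (GRCm38.p6). Named genes were the 5 markers, the 12 largest ratios each way with at least 200 in the higher library (without predicted, clone or Y-linked symbols and Xist), the 3 highest members of each of 31 lists, and further list members where a list is described. The members and lists were chosen with earlier results of these data known, and 2 lists were added after the values were seen. Slc4a1, Ahsp, Mpo, Il2rb, Jun, Atf3, Ntsr2, Gjb5 and the mitochondrially encoded genes were not analysed here. Other scalings, pseudocounts, filters and folds, thinned reads and the omission of each whole-cochlea library were tried. The calculation was tested on simulated data (Python 3.11.15, numpy 2.4.6, pandas 2.3.3, scipy 1.17.1, matplotlib 3.10.9). Some genes that met the naming rule are not reported here.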

Additional observations from a re-analysis of the deposited data

Results flagged for a closer look

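Among the 108 named genes, 12 had 1 of the 4 young whole-cochlea nonmacrophage libraries far from the other 3 by Dixon's criterion for a single outlying value. Chance flags about 1 group in 20 where values follow a normal distribution. The criterion was applied to normalized reads without a log, so that rate may not hold here. Replicate 2 stood apart for Slc1a3 (5634 normalized reads against 9613 to 9930), Kcnj13 (86847 against 17410 to 27659) and Gsta4 (274981 against 54426 to 85294). Replicate 5 stood apart for Nefl (4881 against 914 to 1061), Coch (362711 against 120474 to 152451), Tmem151a (6355 against 254 to 1194) and Ermap (42.2 against 0 to 1.6). Replicate 6 stood apart for Gfi1 (144 against 0 to 5.88) and Nkg7 (1026 against 85.6 to 196). Replicate 14, the deepest of the 4, stood apart for Lrp2 (13965 against 2553 to 4086), Fos (170996 against 31260 to 49171) and Egr1 (162721 against 4692 to 14874). Of these 108 genes none was past 4-fold in opposite directions in the nonmacrophage and macrophage pairs. Further list members were not part of this check, and Pllp among them was past 4-fold in opposite directions. Over all genes, 64 past 4-fold toward the nerve and 41 past 4-fold toward the lateral wall went the other way in macrophages.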

How the results depend on the processing

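No paired analysis was possible because the labels give every library a number of its own, and each structure has 1 library per sort. Without a filter, 1902 genes were past 4-fold toward the nerve and 1407 toward the lateral wall, and with a filter of 500 normalized reads 480 and 298. At 2-fold the counts were 2362 and 1963, and at 8-fold 765 and 433. The genes past 4-fold the same way in macrophages numbered 659 (nerve) and 340 (lateral wall) without a filter, and 106 and 83 with a filter of 500. Leaving out each whole-cochlea library in turn gave 876 to 947 genes beyond the range toward the nerve and 485 to 508 toward the lateral wall. A common total moved the median ratio by -0.17 on the log2 scale and gave 1086 and 936 genes past 4-fold. Setting the median ratio to 1 gave 1165 and 808. With a pseudocount of 10 the median of the oligodendrocyte list was 7.01 and that of the axonal channels 2.97. Without a filter the medians were -2.31 for marginal cells, 0.59 for inward rectifier and leak channels and 0.57 for sodium pump genes, against 1.17 and -0.30 with it for the last 2, since low members enter, so the sodium pump median changed sign. Of 432 ratios of named genes under other settings 31 moved by at least the SD of the gene's log2 values over the whole-cochlea libraries, 30 of them with the pseudocount, and Dsp also with a common total (-9.32). Genes with no read in 1 library and a wide spread in the whole cochlea shifted with the pseudocount without passing that SD, such as B3galt5, from 11.32 to 14.64 and 8.0. No result changed direction past 4-fold. The depth of 21.5 and 26.4 M reads limits genes at or below 3 reads.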
